A study of Danio rerio with 6 samples.

Results

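The splicing factor genes are the 80 genes on the zebrafish array whose symbols begin with sf3a or sf3b, snrp, srsf, hnrnp or prpf, or with lsm and a digit. They were chosen by symbol alone, from 14434 named genes, and each was read from its feature (1 spot of the array) with the highest mean over all 6 arrays. They fall into 9 SF3, 12 snRNP, 10 LSM, 12 PRPF, 16 SRSF and 21 hnRNP genes. None of the 80 was called between *ndr1*-injected and control-injected embryos, where only 3 of the 14434 genes (0.0208%) were called. The direction of the members' differences went with the number of the feature along the array, as it did for other bright features.

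Introns are removed by the spliceosome, which is built on each transcript from small nuclear ribonucleoproteins (snRNPs), each a small nuclear RNA with its proteins. SR proteins and hnRNPs bind the transcript itself and favour or oppose the use of a splice site. The early fish embryo lives on mRNAs and proteins laid down in the egg, and most of its first own transcripts are short and have few or no introns. The roles given below are those known from human and yeast, and many of the genes are present in the zebrafish as duplicates marked a and b.

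Whole AB embryos were profiled at sphere stage, a blastula stage shortly after the embryo begins to transcribe its own genome. Control-injected embryos had received 1 nl of water, and *ndr1*-injected embryos the same volume with 50 pg of mRNA for Ndr1, a Nodal ligand that induces mesoderm and endoderm. Each group held 3 samples of about 200 pooled embryos, and each sample was hybridised to its own 1-colour array. The injection reaches all cells that inherit the mRNA, not only the margin where Nodal ligands are normally made.

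All values are log2 signals, so that 1 unit is a doubling, and a difference is the *ndr1*-injected mean minus the control-injected mean. The arrays had medians of 8.70 to 8.71, and their correlation across features was 0.836 to 0.886 among control-injected and 0.920 to 0.926 among *ndr1*-injected samples. Between samples of different groups it was 0.820 to 0.928. The *ndr1* feature itself was 3.65 ± 0.37 units (SE) higher in *ndr1*-injected samples (limma adjusted p 0.0658), and the Nodal responsive genes *gsc*, *foxa3* and *lft1* were 3.24, 3.39 and 4.20 higher. The blastula markers *pou5f3*, *nanog* and *sox19b* had control-injected means of 14.9, 15.5 and 14.0, and 5 measured markers of tissues not yet formed, of muscle, blood, heart and neurons, had means of 7.28 to 8.98. Whether samples within a group derive from different clutches is not in the labels, and the p-values therefore cover sample to sample spread alone, part of which may be technical. In RNA from whole embryos, a change in the number of cells and in the RNA per cell cannot be told apart, nor can maternal and newly made transcripts.

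With limma, fitted over all named genes and adjusted by the Benjamini-Hochberg method, 0 of the 80 splicing factor genes passed an adjusted p of 0.05, as against 0.0208% of all genes. Their lowest adjusted p was 0.712. At an unadjusted p below 0.05, 1 member was higher, *srsf6b*, and 1 was lower, *hnrnpk*, which is 1.25% of the members in each direction beside 4.34% and 2.59% of all genes. These counts depend on the error model. With an intensity trend and robust variance in limma, 9 members were higher and 3 lower, beside 4.30% and 3.08% of all genes. In the main fit, read on the feature of highest mean, no member had an unadjusted p of at most 0.02, against 2.74% of all genes. Likewise no member differed by 1 unit or more, against 5.01%. The differences ran from -0.58 to 0.91, with a median of 0.08 beside 0.006 for all genes. Above 0 lay 49 members and below it 31 (61.3% above, 50.5% of all genes). Dimmer features of *sf3b1* (1.12) and *prpf3* (1.81) passed 1 unit and are given below.

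The intervals rest on moderated errors, which draw each gene's spread between arrays of a group towards that of all genes. In *lsm7*, with SDs of 0.021 in control-injected and 0.065 in *ndr1*-injected samples, the SE was 0.203. The intervals leave out the trend with place on the array described below. For 70 members, 87.5%, the 95% interval of the difference lay within 1 unit of 0, where 42.5% of all genes had such an interval. *srsf2b*, *snrpb*, *hnrnpa1b* and *hnrnpa0l* are among these 70, but each reached the top of the scale on an array, so their intervals are not bounds. The members varied less between arrays of a group than genes in general did: their median SD was 0.154 in control-injected and 0.206 in *ndr1*-injected samples, and that of all genes 0.40 and 0.293. Of the members, 68 belong to the 4522 features with the highest mean signal, while all genes include many dim ones. Genes of like signal were not set beside the members, here or in the counts above. Their median interval reached 0.553 to either side of the difference. The 10 members whose interval passed 1 unit were *sf3b1*, *snrpg*, *lsm1*, *srsf6b*, *srsf7b*, *hnrnpa3*, *hnrnpd*, *hnrnph1*, *hnrnpk* and *hnrnpul1*.

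Some members stood at an end of the scale. On each array 26 to 156 features shared the highest value, which is a ceiling, and 4 members reached it: *srsf2b* on control-injected replicate 2, *snrpb* and *hnrnpa1b* on *ndr1*-injected replicate 3, and *hnrnpa0l* on both of these arrays. The differences of the former 3 are therefore the least size in their direction, and that of *hnrnpa0l* has no bound. At the other end *hnrnpa3* lay below the array median on all 6 arrays, *srsf7b* on 3, *hnrnph1* on 2 and *lsm1* on 1, near the signals of markers of tissues not yet formed. Without detection calls these values were not shown to be above background.

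**Figure D1:**
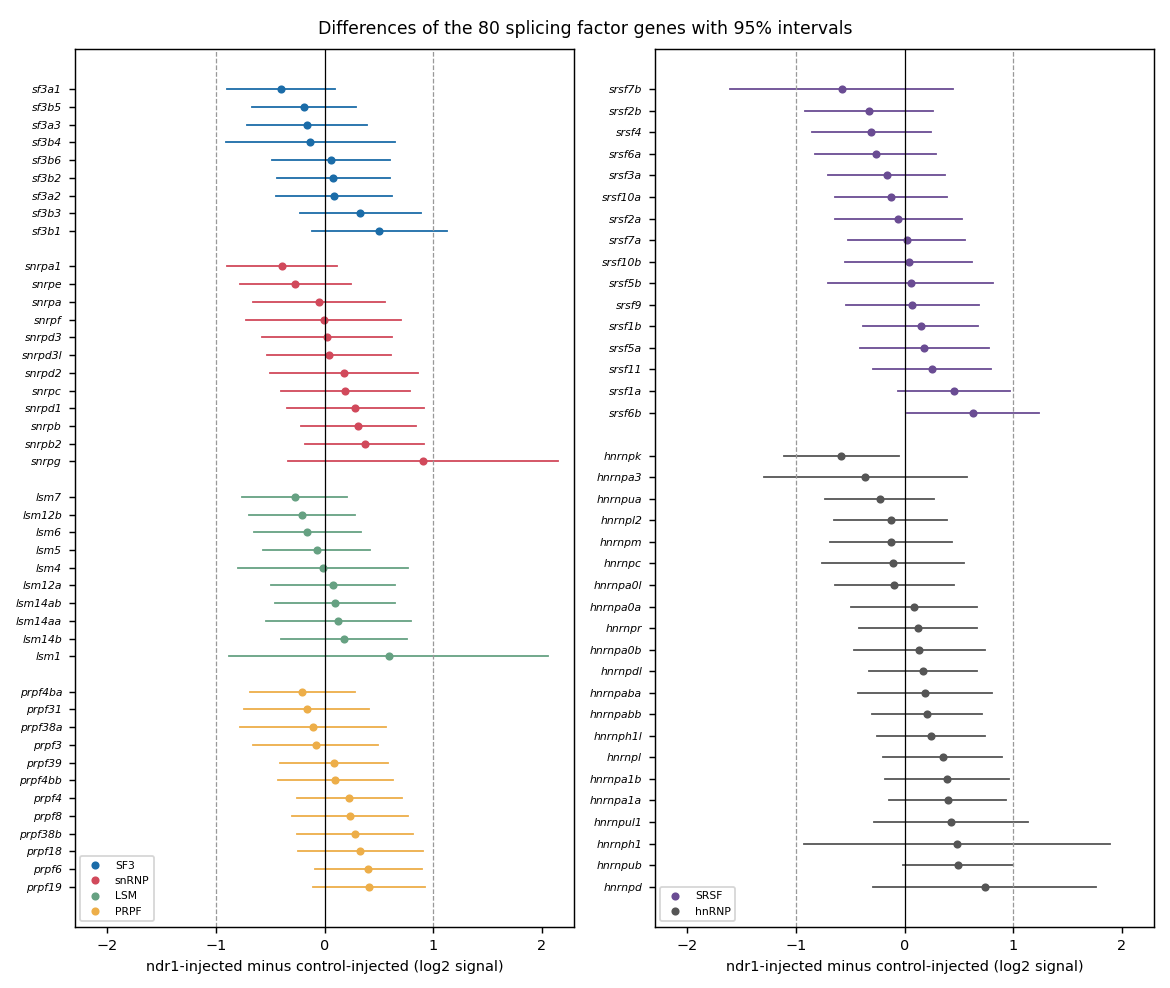
Difference between *ndr1*-injected and control-injected samples (log2 signal, horizontal axis) for each of the 80 splicing factor genes, by family, with points for the fitted difference and lines for its 95% interval (n = 3 arrays per group). The points lie between -0.58 and 0.91, and 70 lines stay between the dashed marks at 1 unit to either side of 0.

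SF3a and SF3b are the protein complexes by which the U2 snRNP holds the branch point of an intron. The 9 genes had a median difference of 0.06 and lay between -0.40 and 0.50, 5 above and 4 below 0. *sf3a1*, a subunit of SF3a, read 13.30, 13.27 and 13.16 in control-injected and 12.85, 12.71 and 12.96 in *ndr1*-injected samples (feature 20605). All 3 *ndr1*-injected values were below the control-injected ones, and the difference was -0.40 ± 0.21 (SE; limma adjusted p 0.743). *sf3b1*, the large SF3b subunit that clamps the branch site, read 12.02, 11.48 and 11.35 against 12.27, 12.15 and 11.94 (feature 3406). Its groups overlapped through control-injected replicate 1, and it differed by 0.50 ± 0.26 (adjusted p 0.743). *sf3b5* was the other SF3 gene whose groups did not overlap, at 13.51, 13.41 and 13.51 against 13.25, 13.36 and 13.27. *sf3a3* (-0.16), *sf3b4* (-0.13), *sf3b6* (0.06), which encodes the subunit next to the branch point adenosine, *sf3b2* (0.08), *sf3a2* (0.09) and *sf3b3* (0.33) overlapped between groups.

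The snRNP genes encode the ring of Sm proteins around the U1, U2, U4 and U5 RNAs and proteins particular to single snRNPs. Their median difference was 0.11, with 8 of 12 above 0. Of the Sm proteins, *snrpg* had the highest difference of all members, 0.91 ± 0.53 (SE; adjusted p 0.744). It read 10.62, 10.84 and 9.01 in control-injected and 11.64, 10.91 and 10.63 in *ndr1*-injected samples (feature 1842). The deviation of control-injected replicate 3 from the median of the 6 arrays was -1.72, and without it the difference was 0.33. The other Sm genes were *snrpe* (-0.27), *snrpf* (-0.01), *snrpd3* (0.02), *snrpd3l* (0.04), *snrpd2* (0.18), *snrpd1* (0.28) and *snrpb* (at least 0.31, with 1 value at the ceiling), and the genes of the ring thus lay on both sides of 0. *snrpe* was the only one of them whose groups did not overlap, at 12.66, 12.85 and 12.59 against 12.41, 12.56 and 12.32.

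The genes of a pair of U2 snRNP proteins that bind its RNA together stood on opposite sides of 0. *snrpa1*, which encodes the U2 protein A', read 13.71, 13.85 and 13.67 against 13.19, 13.46 and 13.40, with no overlap (feature 20878). The difference was -0.39 ± 0.21 (SE; adjusted p 0.744). *snrpb2*, which encodes its partner, the U2 protein B'', read 13.92, 14.13 and 14.41 against 14.58, 14.41 and 14.57 and differed by 0.37 ± 0.23. The features lay at 20878 and 10618, in stretches of the array where most bright features stood below 0 and above 0 respectively. After subtraction of place within classes of signal they stood at -0.17 and 0.23. With place subtracted over a grid of rows and columns they stood at -0.22 and 0.65. The U1 proteins *snrpa* (-0.05) and *snrpc* (0.19) lay closer to 0.

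LSM proteins form rings like those of the Sm proteins, of which the nuclear ring binds U6 RNA, and a cytoplasmic ring with Lsm1 takes part in mRNA decay. Their median difference was 0.03, with 5 of 10 on each side of 0. *lsm7*, shared by both rings, read 12.23, 12.19 and 12.20 in control-injected and 12.00, 11.92 and 11.87 in *ndr1*-injected samples (feature 24083). The groups lay apart and the spread was small, and the difference was -0.28 ± 0.20 (SE; adjusted p 0.760). The other shared ring genes were *lsm6* (-0.16), *lsm5* (-0.07) and *lsm4* (-0.02). *lsm1*, of the cytoplasmic ring alone, read 10.64, 11.00 and 8.52 against 10.48, 10.55 and 10.89 (feature 39954). The low array was again control-injected replicate 3, with a deviation of -2.07 from the median of the 6, and the difference of 0.59 ± 0.62 (adjusted p 0.80) became -0.18 without it.

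The rest of the LSM genes carry the domain without being ring subunits. *lsm12b* read 13.08, 12.93 and 12.99 against 12.80, 12.86 and 12.72 and differed by -0.21 ± 0.21 (SE; adjusted p 0.794; feature 15938), without overlap. Its duplicate *lsm12a* differed by 0.07. *lsm14ab* (0.09), *lsm14aa* (0.13) and *lsm14b* (0.18), relatives of a gene that represses stored mRNAs in cytoplasmic granules, overlapped between groups.

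The PRPF genes, named after yeast mutants in precursor RNA processing, encode proteins of the U4/U6 and U5 snRNPs and later acting factors. They had a median difference of 0.16, and 8 of 12 lay above 0. *prpf6*, which bridges the U5 and U4/U6 snRNPs, read 12.03, 12.06 and 12.26 in control-injected and 12.51, 12.58 and 12.47 in *ndr1*-injected samples (feature 4060). The difference was 0.40 ± 0.21 (SE; adjusted p 0.743). *prpf19*, which encodes a ubiquitin ligase of the activated spliceosome, read 13.04, 12.74 and 13.11 against 13.40, 13.36 and 13.36 (feature 4822), a difference of 0.41 ± 0.22 (adjusted p 0.744). In both genes every *ndr1*-injected value exceeded every control-injected value. *prpf4*, of the U4/U6 snRNP, also did not overlap (0.23), and its U4/U6 partners *prpf3* and *prpf31* stood at -0.08 and -0.16. *prpf8*, the core protein at the centre of the spliceosome, differed by 0.24 and *prpf18*, which acts in exon joining, by 0.33. The kinase gene *prpf4ba* was lower without overlap (-0.20), and *prpf38a* (-0.11), *prpf39* (0.09), *prpf4bb* (0.10) and *prpf38b* (0.28) overlapped.

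SR proteins bind exons and recruit the splicing machinery to nearby sites. The 16 genes had a median of 0.03, with 9 above 0. *srsf6b* read 11.85, 11.94 and 12.21 in control-injected and 13.00, 12.45 and 12.43 in *ndr1*-injected samples (feature 3894). All *ndr1*-injected values were higher, replicate 1 most, and the difference was 0.63 ± 0.26 (SE), 1.55-fold, with an unadjusted p of 0.0448 and an adjusted p of 0.712. *srsf1a*, a duplicate of the founding SR protein gene, read 12.68, 12.89 and 12.88 against 13.34, 13.09 and 13.38 (feature 41985). Its groups did not overlap either, and it differed by 0.45 ± 0.22 (adjusted p 0.724). The values of *srsf7b* were 9.81, 8.11 and 9.14 against 8.25, 8.36 and 8.73 (feature 12720). The signal was near or below the array medians, and the control-injected arrays themselves spanned more than the difference of -0.58 ± 0.44 (adjusted p 0.760), which was -0.18 without replicate 1 and -1.03 without replicate 2 of that group. The other 13 SR genes lay between -0.33 (*srsf2b*, with 1 control-injected value at the ceiling) and 0.25 (*srsf11*). They were *srsf4* (-0.31), *srsf6a* (-0.27), *srsf3a* (-0.16), *srsf10a* (-0.12), *srsf2a* (-0.06), *srsf7a* (0.02), *srsf10b* (0.04), *srsf5b* (0.06), *srsf9* (0.07), *srsf1b* (0.15) and *srsf5a* (0.18), besides those at the ends.

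The hnRNP genes encode abundant nuclear proteins that coat transcripts and often oppose exon inclusion. Their median difference was 0.17, and 14 of 21 were above 0. *hnrnpk*, whose protein binds C-rich stretches, had the lowest difference of all members. It read 14.07, 14.01 and 13.92 in control-injected and 13.18, 13.59 and 13.50 in *ndr1*-injected samples (feature 21542). The groups lay apart, and the difference was -0.58 ± 0.22 (SE), 1.5-fold, with an unadjusted p of 0.0354 and an adjusted p of 0.712. Leaving out single arrays moved it between -0.66 and -0.46.

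*hnrnpub*, a duplicate of the gene for the scaffold protein hnRNP U, read 14.27, 14.29 and 14.54 against 14.80, 14.82 and 14.96 (feature 3948). Every *ndr1*-injected value was higher, and it differed by 0.49 ± 0.21 (SE; adjusted p 0.712). By the annotation's own symbols *hnrnpub* would be read from feature 43563, which differed by 0.39. *hnrnpd*, which encodes a protein that binds AU-rich elements of unstable mRNAs, read 11.15, 10.62 and 9.58 against 11.65, 11.00 and 10.92 (feature 4254). The groups overlapped, control-injected replicate 3 deviated by -1.38 from the median of the 6 arrays, and the difference of 0.74 ± 0.44 (adjusted p 0.745) was 0.30 without it. The dim feature of *hnrnpa3* read 8.07, 8.19 and 7.85 against 8.10, 6.79 and 8.15 (feature 29158), and its difference of -0.36 ± 0.40 (adjusted p 0.804) was 0.08 without *ndr1*-injected replicate 2.

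Among the other hnRNP genes *hnrnph1*, whose protein binds runs of G, had the widest spread, at a signal near the array medians. Its control-injected values of 7.89, 10.07 and 7.83 enclosed all *ndr1*-injected ones, which were 8.89, 9.35 and 9.0. *hnrnpa1a*, of the best known exon silencer, did not overlap (13.53, 13.59 and 13.96 against 14.00, 14.07 and 14.20), nor did *hnrnpl* (0.35), whose protein binds CA repeats, and *hnrnph1l* (0.24). The dimmer features of *hnrnpl* and *hnrnph1l* stood at -0.06 and -0.15. By the annotation's own symbols *hnrnpl* would be read from feature 16869, here that of *hnrnpl2*, which differed by -0.13 and overlapped. The remaining 13 were *hnrnpua* (-0.23), *hnrnpl2* (-0.13), *hnrnpm* (-0.13), *hnrnpc* (-0.11), *hnrnpa0l* (-0.09, with a value at the ceiling in each group), *hnrnpa0a* (0.08), *hnrnpr* (0.12), *hnrnpa0b* (0.13), *hnrnpdl* (0.17), *hnrnpaba* (0.19), *hnrnpabb* (0.21), *hnrnpa1b* (at least 0.39) and *hnrnpul1* (0.43), and all of these overlapped between groups.

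**Figure D2:**
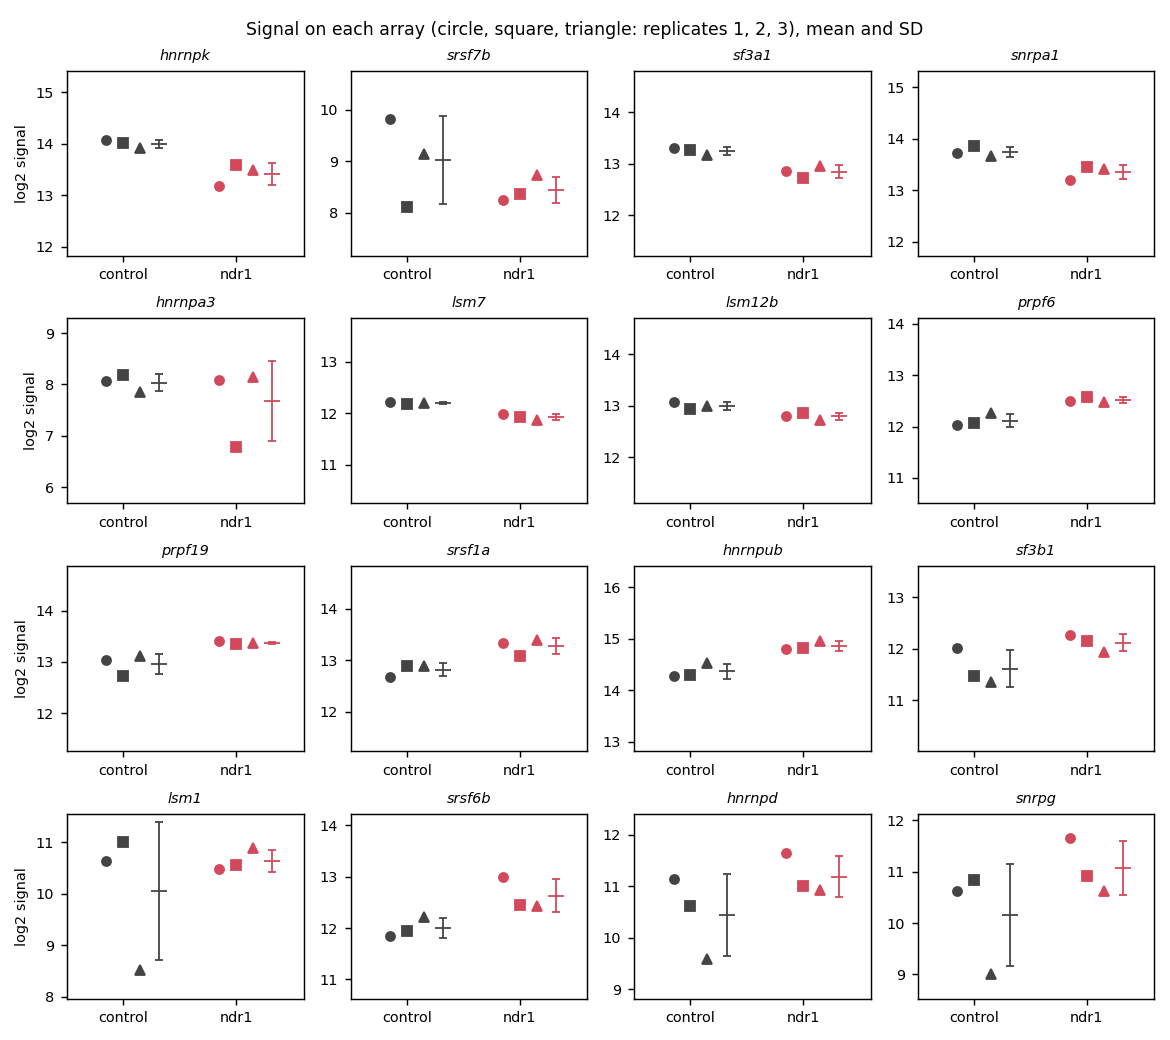
Log2 signal (vertical axis, each panel spanning the same range of units) on each of the 6 arrays for the 16 splicing factor genes described with their values, with circles, squares and triangles for replicates 1, 2 and 3, and the mean with SD beside them. *hnrnpk*, *sf3a1*, *snrpa1*, *lsm7* and *lsm12b* are separated downwards and *prpf6*, *prpf19*, *srsf1a*, *hnrnpub* and *srsf6b* upwards, while control-injected replicate 3 is the low point of *lsm1*, *hnrnpd* and *snrpg*.

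In all, 9 members had every *ndr1*-injected value above every control-injected one, 11.2% beside 8.11% of all genes. They were *srsf6b*, *srsf1a*, *hnrnpub*, *hnrnpa1a*, *hnrnpl*, *hnrnph1l*, *prpf19*, *prpf6* and *prpf4*. Another 8 members, 10% beside 5.86% of all genes, had every *ndr1*-injected value below. These were *hnrnpk*, *sf3a1*, *sf3b5*, *snrpa1*, *snrpe*, *lsm7*, *lsm12b* and *prpf4ba*. The SD of the members between arrays was smaller than that of all genes, and its part in these shares was not tested. Genes of like signal were not set beside the members here.

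Medians over the members were also compared between arrays. For all 80 members, the median deviation from each gene's own mean over 6 arrays was -0.04, -0.08 and 0.02 on the control-injected and 0.05, 0.04 and 0.03 on the *ndr1*-injected arrays. These medians did not overlap between groups, the nearest arrays standing at 0.02 and 0.03, and the SD between arrays of a group was 0.036. For all named genes the medians were -0.00, -0.00 and 0.04 against -0.01, 0.06 and 0.06, so that those of *ndr1*-injected replicates 2 and 3 exceeded the members'. With place subtracted over a grid of rows and columns, the members' medians were -0.09, 0.04 and -0.11 against 0.07, 0.02 and 0.02, and the groups overlapped. The PRPF and hnRNP genes were also separated, PRPF from -0.19 to 0.03 against 0.07 to 0.16 and hnRNP from -0.15 to -0.00 against 0.03 to 0.13. Once place was subtracted over the grid, the PRPF genes overlapped. The hnRNP genes stayed apart there, from -0.15 to -0.13 against -0.11 to 0.11. In the SF3, snRNP, LSM and SRSF genes the groups overlapped as deposited. Over the grid the LSM genes came apart, from -0.18 to -0.07 against 0.07 to 0.11.

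**Figure D3:**
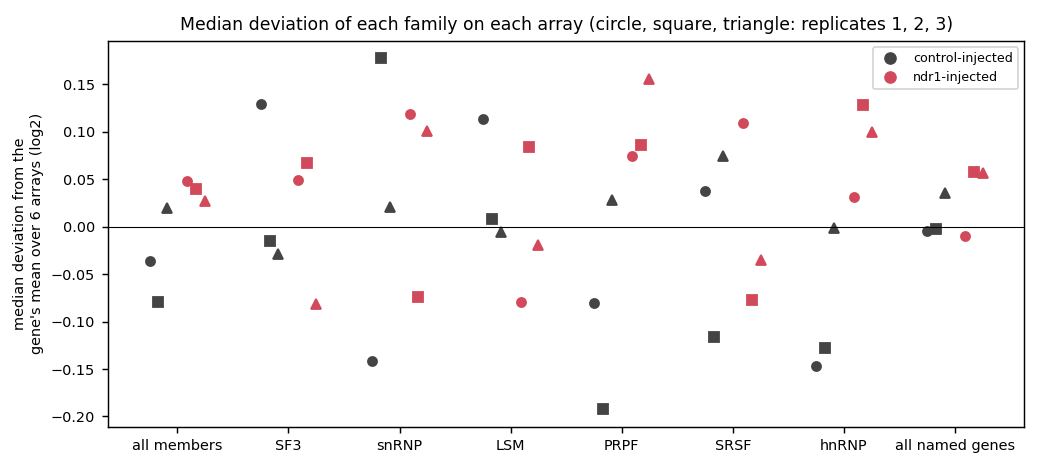
Median over the genes of each family of the deviation from the gene's mean over 6 arrays (log2 units, vertical axis), for each array, with control-injected arrays in grey and *ndr1*-injected arrays in red. The medians lie between -0.19 and 0.18, and only the medians of all members, PRPF and hnRNP keep the groups apart.

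The direction of the members went with long stretches of the array. Features are numbered along the array, and neighbours by number were correlated in their deviations at 0.36 to 0.63 on the 6 arrays. Among features 1 to 13566, 29 of 31 members lay above 0. Among features 13567 to 27132, 0 of 22 did, and among features 27133 to 45220, 20 of 27 did. The medians were 0.18, -0.20 and 0.13. The 3 stretches were joined from 10 equal ones after the values had been seen, and the counts are a description. The match depends on how place is measured. The median over the neighbours of a feature on the grid, most of them dim, had the sign of the member for 29 of the 49 members above 0 and 21 of the 31 below. Over all features the medians of the 10 equal stretches were 0.51, 0.12, -0.29, -0.35, -0.11, -0.10, -0.24, 0.02, 0.12 and 0.39, and in the third of these 8 of 9 members lay above 0.

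Other bright features went the same way in the same places. Of the 4522 features with the highest mean signal, to which 68 of the 80 members belong, 74.8% lay above 0 in the first stretch, 16.2% in the second and 64.5% in the last. Median differences of these features in the same 10 stretches were 0.13, 0.16 and 0.09, then -0.11, -0.25 and -0.20, and then -0.05, 0.18, 0.13 and 0.16. All 8 members that were lower without overlap, *hnrnpk* at feature 21542 and *sf3a1* at 20605 among them, were numbered between 15938 and 24787. All 9 that were higher without overlap, such as *srsf6b* at 3894, *hnrnpub* at 3948, *prpf6* at 4060 and *srsf1a* at 41985, were numbered 7462 and below or 32372 and above.

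When the running median along the feature number was subtracted within classes of like signal, an analysis added after the data had been seen, the members moved towards 0. Their range narrowed to -0.34 to 0.54 and their median to 0.01, with 43 above 0. Differences shrank over all 14434 genes as well, where those of 1 unit or more went from 723 genes to 142. The median SE went from 0.235 to 0.172 for the members and from 0.321 to 0.233 for all genes. By stretch the medians of the members became 0.04, -0.05 and 0.04, with 21 of 31, 7 of 22 and 15 of 27 above 0. Again 0 members were called, with a lowest adjusted p of 0.976 in limma, while 7 of all genes were called, all 7 higher. At an unadjusted p below 0.05 there were 0 members in either direction on their features of highest mean, beside 2.39% of all genes higher and 1.35% lower. Some dimmer features of members passed it and are given below. *hnrnpk* then stood at -0.34 ± 0.17 (SE) and *srsf6b* at 0.47 ± 0.23, where subtraction over the grid gave -0.64 and 0.06. Within classes of signal, 4 of the 9 genes higher without overlap remained so (*hnrnpl*, *prpf19*, *prpf6* and *srsf1a*), and 2 of the 8 lower ones (*hnrnpk* and *lsm12b*). In total 6 members were then separated upwards, beside 5.29% of all genes, and 2 downwards, beside 4.20%. Over the grid 0 of the 9 higher genes and 1 of the 8 lower ones (*snrpe*) stayed separated. There 7 members in total were separated upwards, beside 7.87% of all genes, and 1 downwards, beside 4.54%. Slide layout and scan settings are not stated by the labels or the methods, and what lies behind the trend with place was not tested.

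**Figure D4:**
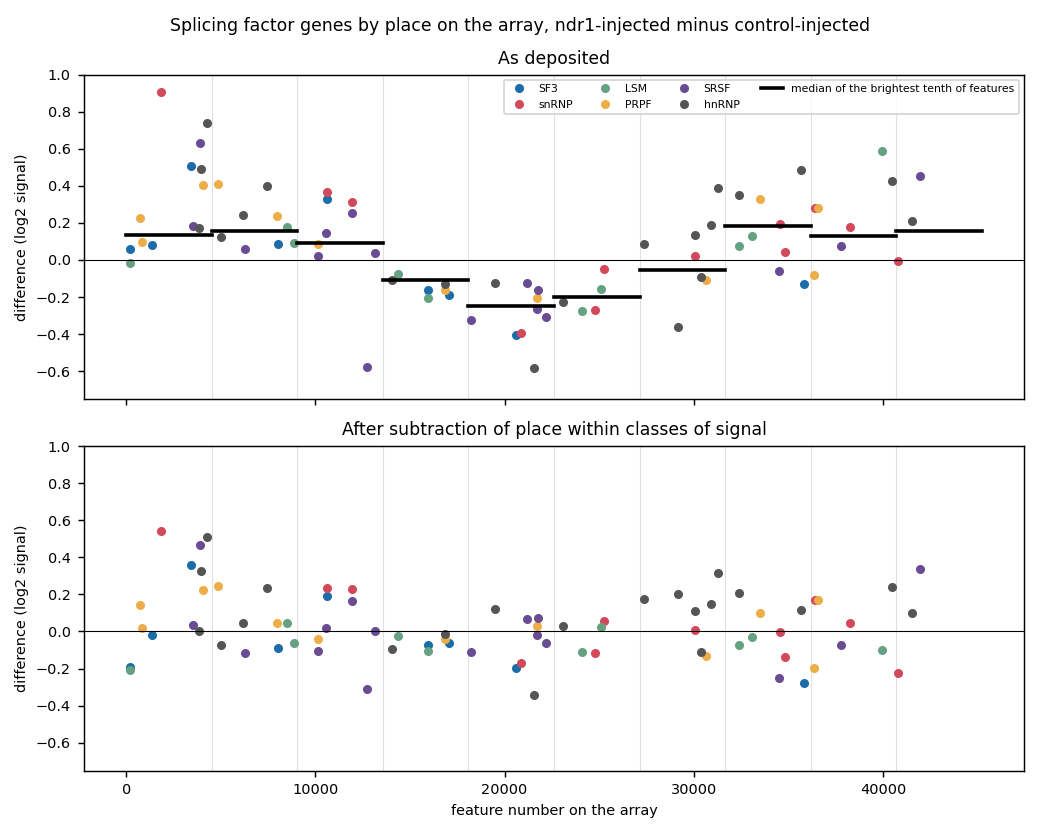
Difference between *ndr1*-injected and control-injected samples (log2 signal, vertical axis) of the 80 splicing factor genes by the number of their feature along the array (horizontal axis), coloured by family, as deposited (top) and after subtraction of place within classes of signal (bottom), with black bars for the median of the 4522 brightest features in each of 10 equal stretches. At the top 0 of 22 members between features 13567 and 27132 lie above 0, against 29 of 31 before them, and at the bottom the range narrows to -0.34 to 0.54.

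More than 1 feature was present for 36 of the members, which have 130 features in all. Feature by feature, 0 of the 130 were called, with a lowest adjusted p of 0.726 in limma, and 2 were higher and 0 lower at an unadjusted p below 0.05, where all features had 3.69% and 3.05%. Over all 45220 features 0 were called and 3048 had such a p. Of the 50 features other than the chosen ones, 31 had the sign of the chosen feature, and in 19 of the 36 genes all features had 1 sign, 14 upwards and 5 downwards. The gap between the outermost features of a gene had a median of 0.31, and 57 of the 80 chosen features differed by less than that. Where in the transcript each feature lies was not used here, so features of a gene can read different isoforms.

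The features higher at that unadjusted p were further features of *sf3b1* and *srsf6b*. *sf3b1* differed by 0.50 on its chosen feature and by 0.67 and 1.12 on the others, the last at feature 4930 with an adjusted p of 0.726. *srsf6b* differed by 0.63 and 0.77, at features 3894 and 4242. All 5 of these features lie among the first 4930 of the array, where bright features stood higher, and with place subtracted on the grid of rows and columns they differed by 0.47, 0.07 and 0.20 for *sf3b1* and by 0.06 and 0.10 for *srsf6b*. Within classes of signal they stood at 0.36, 0.53 and 0.93 and at 0.47 and 0.55. There, features 4930 and 4242 were higher at an unadjusted p below 0.05 in limma, as was 10865 of *hnrnpub* (0.46). Feature 42768 of *prpf19* was lower at that p (-1.23). Each of these had an adjusted p of 0.968, and the share of all features at that p is not given here.

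*hnrnpul1*, a relative of hnRNP U, was higher on 3 features that are not all close together, by 0.43 at feature 40457, 0.74 at 2671 and 0.90 at 4350, and stood at 0.24, -0.12 and 0.43 within classes of signal and at 0.62, 0.44 and 0.96 with place subtracted over the grid. *hnrnpub* was higher on 3 features, by 0.49, 0.59 and 0.39 at 3948, 10865 and 43563, and stood at 0.33, 0.46 and 0.22 within classes of signal and at 0.21, 0.73 and -0.096 over the grid. Other genes were split. *sf3a1* had -0.40, -0.00 and 0.12, *prpf19* 0.41 and -0.89, *prpf3* -0.08 and 1.81, *lsm12b* -0.21 and 0.32, and *srsf7b* -0.58, 0.03 and 0.17. *srsf1a* (0.45 and 0.24), *prpf6* (0.40 and 0.14) and *lsm7* (-0.28 and -0.02) kept their sign with a smaller value on the dimmer feature. *hnrnpk*, *snrpa1*, *snrpg*, *lsm1*, *hnrnpd* and *hnrnpa3* have 1 feature each.

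**Figure D5:**
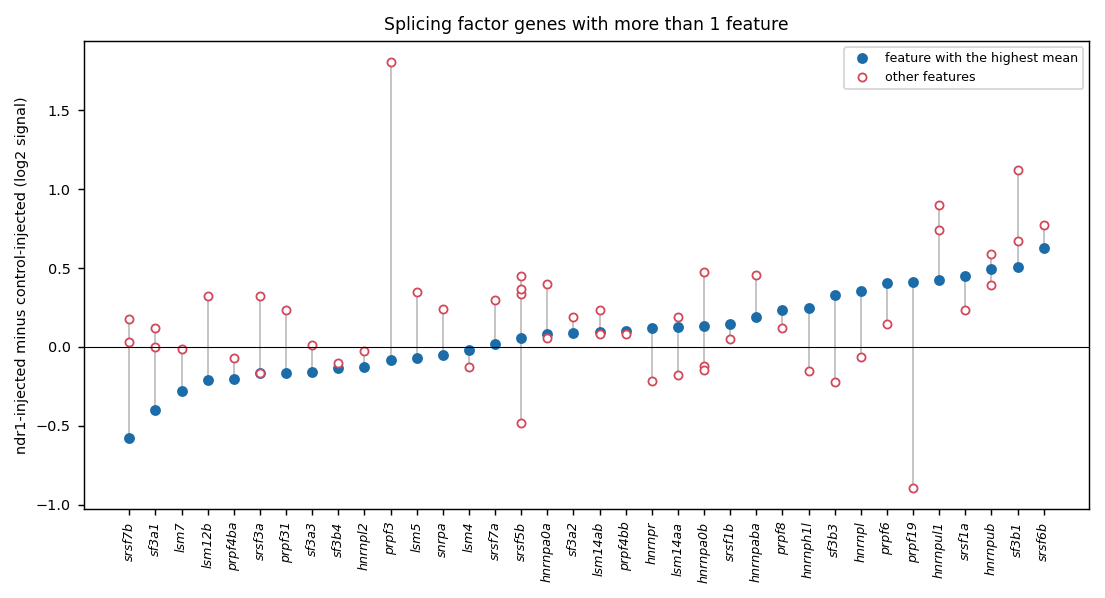
Difference between *ndr1*-injected and control-injected samples (log2 signal, vertical axis) for every feature of the 36 splicing factor genes with more than 1 feature, with filled points for the feature of highest mean and open points for the others. Points of a gene lie on both sides of 0 in 17 of the 36 genes, and *prpf3* (1.81) and *prpf19* (-0.89) have a dimmer feature far from the chosen one.

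Duplicates of a gene offer a comparison within each array. Of 13 pairs of duplicates, 7 had differences of 1 sign and 6 of opposite sign. In 4 pairs the log ratio of the duplicates did not overlap between groups, namely *srsf6a* and *srsf6b* (-0.27 and 0.63), *hnrnpua* and *hnrnpub* (-0.23 and 0.49), *prpf4ba* and *prpf4bb* (-0.20 and 0.10), and *srsf1a* and *srsf1b* (0.45 and 0.15). Among 1550 other pairs of named genes whose symbols end in a and b, 13.6% did not overlap. *hnrnpa1a* differed by 0.40 and *hnrnpa1b*, with a value at the ceiling, by at least 0.39. *srsf6a*, *hnrnpua* and *prpf4ba* are numbered within the second stretch of the array and *srsf6b*, *hnrnpub* and *prpf4bb* within the first. *srsf1a* lies in the last stretch and *srsf1b* in the first. After subtraction within classes of signal *srsf6a* and *srsf6b* stood at -0.02 and 0.47, and *hnrnpua* and *hnrnpub* at 0.03 and 0.33. There *prpf4ba* and *prpf4bb* stood at 0.03 and 0.02, and *srsf1a* and *srsf1b* at 0.34 and 0.02. Over the grid the 4 pairs, in this order, stood at -0.31 and 0.06, -0.37 and 0.21, -0.03 and -0.41, and 0.30 and 0.40. The part of place in the ratios was not tested. Near-identical duplicates can also share signal on such arrays.

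Other genes of the same machinery gave a similar account. Of 51 measured spliceosome proteins outside the symbol pattern 0 were called, beside 0.0208% of all genes, and their median was 0.05. Without overlap 9 of the 51 were higher and 4 lower, beside 8.11% and 5.86% of all genes. At an unadjusted p below 0.05, 2 were higher and 0 lower, beside 4.34% and 2.59% of all genes. The 2 were *snrnp40*, of the U5 snRNP, with 0.83 ± 0.21 (SE; limma adjusted p 0.689), and *snrnp25*, of the minor spliceosome, with 1.27 ± 0.52 (adjusted p 0.712). *snrnp40* stood at 0.73 within classes of signal and 0.25 over the grid. *snrnp25* was 0.66 without control-injected replicate 3, which read 7.90 against 9.63 and 9.84 on the other control-injected arrays, 0.30 within classes of signal and 0.62 over the grid. Of 14 measured genes of snRNP assembly 0 were called or reached that unadjusted p, with a median of -0.05. *phax*, an adaptor in the export of snRNAs, differed by -0.34 ± 0.29 and *gemin7*, of the SMN complex, by 0.82 ± 0.69. Of 33 measured splicing regulators with other names 0 were called or reached it either, with a median of -0.0005. The lowest p belonged to *mbnl3* (0.43 ± 0.24) and *celf2* (-0.40 ± 0.23), both of families that bind introns near regulated exons. Without overlap 4 of these regulators were higher and 2 lower, and 0 of the 14 assembly genes in either direction.

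Markers of other layers of the embryo were read beside them. Of the measured markers 0 were called in any of the lists, beside 0.0208% of all genes. The lists held 7 genes of the enveloping layer, 6 of the yolk syncytial layer and 6 of the germ plasm, with medians of 0.02, 0.44 and -0.23. At an unadjusted p below 0.05 in limma, 1 enveloping layer gene was higher, and 1 yolk syncytial gene was higher and 1 lower. Germ plasm genes had 0 in either direction, and all genes had 4.34% higher and 2.59% lower. The mean log2 signal of the list ranged over control-injected arrays from 11.6 to 11.9 and over *ndr1*-injected arrays from 11.6 to 12.6 for the enveloping layer. For the yolk syncytial layer it ranged from 10.02 to 10.5 and from 10.4 to 11.2, and for the germ plasm from 11.2 to 11.3 and from 10.9 to 11.4. The outermost were the keratin gene *krt18a.1* (1.45 ± 0.34, SE) and the yolk syncytial genes *gata6* (2.31 ± 0.56) and *slc40a1* (-1.24 ± 0.30), and the part of these layers in the values of the splicing factor genes was not tested.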

How the data were processed

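RNA from 6 samples was labelled with an Alexa Fluor dye and hybridised to 1-colour Agilent zebrafish arrays read on an Axon GenePix scanner. The deposited table gives 1 log2 value per feature and array, normalised between arrays by the authors with qspline. The log2 scale was read from the range of the values, 4.92 to 16.3, while background correction and detection calls are not stated. The number of arrays limits the precision. Groups follow the labels, while the general methods of the study name a smaller amount of *ndr1* mRNA and a different control injection.

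The platform annotation named 21061 of 45220 features with 1 symbol and 0 with several, and 24159 were not listed. Symbols were updated through Entrez numbers (20133 features) or accessions (408) with the GRCz12tu RefSeq table, 520 kept their symbol and 298 changed. The features chosen for *hnrnpub* and *hnrnpl2* took these names in the update. Probe positions in the genome and sequences were not used here.

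A linear model without covariates was fitted to all 14434 genes in limma (version 3.58.1, R version 4.3.3) with moderated errors, and p was adjusted by Benjamini-Hochberg (threshold 0.05). The fit was tested on simulated data with noise independent between genes, so that test did not cover the trend with place. Of the features of a gene the one with the highest mean was used. The genes given with all values are those called, the 2 with the smallest p in each family and the 5 highest and 5 lowest differences, and from the other lists the 2 with the smallest p. Further genes given with values were chosen after these had been seen, as was the choice of duplicate pairs, which left out *snrpa* with *snrpb* and *prpf38a* with *prpf38b*. The members and lists were chosen with earlier results of these data known.

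Alternatives were quantile normalisation, centring on the median, a replicate block, the dimmest 20% of features left out, an intensity trend with robust variance, the mean of all features of a gene, each array left out, and subtraction of the local median over a grid of 532 rows and 85 columns (window of 9 features), inferred from the correlation of neighbours. Added after the data were seen were subtraction of a running median over 101 features within 10 classes of mean signal, and grouping by the annotation's own symbols. Whether replicate numbers pair the samples is not in the labels, and the main fit did not pair them. The correlations of same-numbered samples were 0.17, -0.10 and 0.02, beside -0.22 to 0.21 for other numbers, which does not settle it.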

Additional observations from a re-analysis of the deposited data

How the results depend on the processing

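Over 15 alternatives 0 splicing factor genes were called in each, with a lowest adjusted p in limma between 0.309, without control-injected replicate 2, and 0.976, after subtraction of place within classes of signal. At an unadjusted p below 0.05 the 1 higher and 1 lower gene became 0 and 0 with the replicate block and with subtraction within classes of signal, 9 and 3 with an intensity trend and robust variance, 5 and 0 with place subtracted over the grid, and 2 and 1 with the dimmest features left out or with the mean of all features. Leaving out each array gave 0 to 2 higher and 0 to 1 lower. Of all genes, 4.34% were higher and 2.59% lower at this p in the main fit, and 4.30% and 3.08% with the trend. Over the grid these shares were 4.21% and 1.68%, within classes of signal 2.39% and 1.35%, and under the block 4.41% and 2.42%. The mean of all features gave 4.91% and 2.56%, and removal of the dimmest 20% gave 4.09% and 2.37%. Among fits lacking a single array the shares ran from 1.79% to 6.46% higher and from 1.75% to 5.29% lower. The median difference of 0.083 was 0.013 within classes of signal and 0.053 to 0.124 without single arrays, and it kept its sign throughout. Of the 16 genes given with all values 10 settings of single genes turned the sign. With place subtracted over the grid *lsm12b* stood at 0.35, *lsm7* at 0.046, *prpf6* at -0.030 and *hnrnpa3* at 0.23, and within classes of signal *hnrnpa3* at 0.20 and *lsm1* at -0.10. With the mean of all features *lsm12b* stood at 0.056 and *prpf19* at -0.24. Without single arrays *lsm1* ran from -0.18 (control-injected replicate 3 left out) to 1.06, and *hnrnpa3* from -0.60 to 0.085 (*ndr1*-injected replicate 2 left out). The cause of these turns was not tested. The genes higher over the grid (*snrpb*, *snrpb2*, *sf3b3*, *snrpd1* and *hnrnpa1b*) differ from the 1 higher as deposited. Most neighbours on the grid are dim, and their part in this was not tested. Whether the replicate numbers pair the samples is not in the labels, so the 0 and 0 under the block were not read further. The 3 arrays a group limit all of these values.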
